A study of Mus musculus with 5 samples.

Results

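The 35 genes described here encode the contractile apparatus of striated muscle: myosin heavy and light chains, actin, troponins, titin and Z-disc proteins, together with the calcium-handling proteins Atp2a1, Ryr1 and Casq1, creatine kinase (Ckm) and myoglobin (Mb). They were followed in mouse retinal RNA among the 33636 rows of the gene count table. Members were chosen by name from known muscle biology, and the choice was made with the values of these same libraries known, so the differences given below for them are a description. Each of the 35 symbols was found in 1 row. Of these, 25 had more than 10 counts in at least 2 libraries and entered the comparison of 17432 genes, while Myh1, Myh2, Myh4, Myh13, Myh15, Myl3, Mybpc1, Tnni2, Tnnt3 and Myoz1 did not. A gene that is high in 1 library and near 0 elsewhere cannot pass that filter, and 7 of the 10 were of this kind.

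Male C57BL/6J mice, a common inbred laboratory strain, carried a translucent goggle over the right eye for 2 weeks from P28, which blurs the retinal image and drives the young eye towards myopia (FDM). The other eye, the left, carried no goggle and is the control, so both groups share strain, sex, age and head-mounted device, and a control eye is not an eye of an untreated animal. Retinas taken at P42 gave 5 libraries, FDM 1, FDM 3, Control 1, Control 2 and Control 3. The second FDM library is numbered 3 in the count table and in the description of the study but 2 in the sample labels. By the first numbering 2 mice contributed both eyes and Control 2 has no partner.

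In striated muscle, myosin heavy chains form the motor of the thick filament and each muscle fibre type is marked by its own heavy chain, while light chains and myosin binding proteins tune the motor. The thin filament is built of actin, and calcium binding to troponin C releases the block that troponin I and troponin T hold on it. Titin and the Z-disc proteins hold the filaments in register, and Ryr1, Casq1 and Atp2a1 release, store and retrieve the calcium. The neural retina has no striated muscle of its own, but some of these genes are used at low level in other cell types, and extraocular muscles insert on the outside of the eyeball.

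The estimated counts summed to between 40599047 and 56534931 per library. Levels are given as estimated counts, or as CPM, which is counts after scaling for sequencing depth with TMM. For comparisons between genes, CPM per kb of exon is used. Exon length is that of all annotated exons of a gene merged, so it can exceed the longest coding transcript. It was 3600 against 1150 bases for Tnni1 and 11772 against 6149 for Myh8, which lowers their values on this scale. The detection floor was set at 3 counts, which is 0.0526 to 0.0751 CPM depending on the library and reflects counting error alone. Where 5 values follow each other below, they stand for FDM 1, FDM 3, Control 1, Control 2 and Control 3. The retinal identity of the libraries was even: 20 marker genes of retinal neurons and Müller glia, rhodopsin among them, summed to between 52880 and 65460 CPM in each library. In bulk RNA, fewer cells of a type and less RNA per cell cannot be told apart.

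Of the 27 members with a promoter in the RefSeq promoter table for GRCm38 that starts within 100 bases of an annotated transcript start, 10 held the E-box CAGCTG, the core of many binding sites of myogenic factors, in the 250 bases before the start, searched on both strands. These were Myl1, Mylpf, Mybpc1, Acta1, Tnni1, Des, Atp2a1, Casq1, Ckm and Mb. The same letters stood in 12.2% of all 14581 promoters. TATAAA was found on either strand in 7 of the 27, in Myh1, Myh3, Myh8, Myh15, Myl1, Acta1 and Tnnt1, and in 10.3% of all promoters. A MEF2 box (CTA, any 4 bases, TAG) stood in the window of Ttn alone among the members and in 2.81% of all promoters. The last 100 bases before the start are shown for 4 members that were high in Control 3 (Myh3, Mybpc1, Acta1 and Des) and for Myh8, a heavy chain that was not. Capitals mark TATAAA or its complement TTTATA and CAGCTG, and each sequence is written 5′ to 3′ along the gene's own strand.

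Myh3 (plus strand, chr11:67078200-67078299): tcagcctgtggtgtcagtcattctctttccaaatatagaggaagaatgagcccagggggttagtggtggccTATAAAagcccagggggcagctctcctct

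Myh8 (plus strand, chr11:67277024-67277123): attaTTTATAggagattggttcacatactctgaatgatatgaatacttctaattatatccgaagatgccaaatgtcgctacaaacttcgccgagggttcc

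Mybpc1 (minus strand, chr10:88605153-88605252): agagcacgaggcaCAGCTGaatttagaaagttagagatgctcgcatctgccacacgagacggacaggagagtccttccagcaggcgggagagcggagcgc

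Acta1 (minus strand, chr8:123894776-123894875): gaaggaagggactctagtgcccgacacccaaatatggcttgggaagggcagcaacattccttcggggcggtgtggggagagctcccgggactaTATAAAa

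Des (plus strand, chr1:75360192-75360291): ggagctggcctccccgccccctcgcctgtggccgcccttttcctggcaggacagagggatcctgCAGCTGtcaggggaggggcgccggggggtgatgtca

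The 35 genes were dominated by 1 library. In Control 3, 30 of the 35 reached their highest CPM of the 5 libraries, among them 22 of the 25 tested members, while Control 3 was the highest library for 20.2% of all tested genes. A level at least 2-fold above the next highest library was seen for 21 members, 13 of them tested, against 0.224% of all tested genes. For 12 members the gap was at least 10-fold: Myh1, Myh2, Myh3, Myh4, Myh15, Myl1, Mybpc1, Tnnc2, Tnni2, Tnnt3, Atp2a1 and Mb. Summed over the 35 genes, the level was 76.9, 78.7, 81.5, 77.0 and 254.0 CPM. Thus FDM 1, FDM 3, Control 1 and Control 2 lay close together, and the excess of Control 3 over their mean, 175.5 CPM, was 0.0176% of its library.

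**Figure D1:**
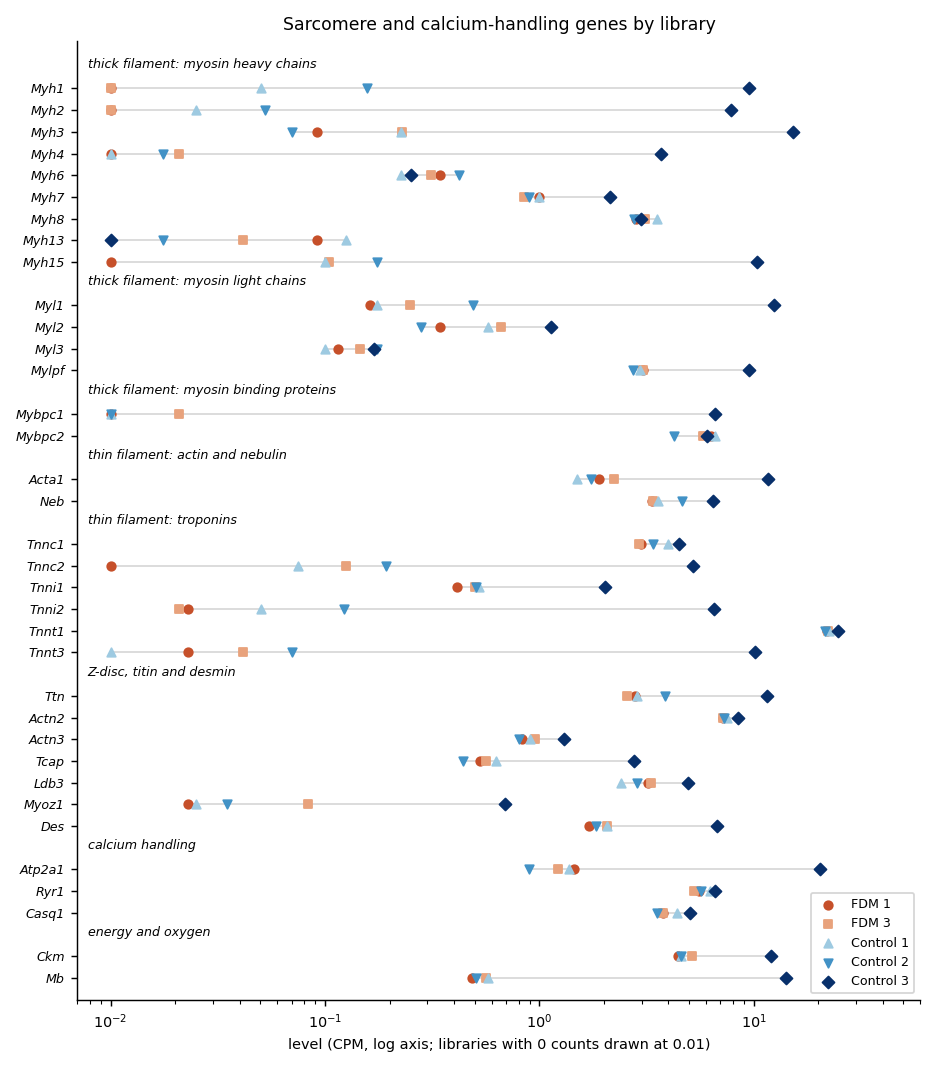
Level of each of the 35 genes (CPM, log axis) in the 5 libraries, grouped by role, with 1 point per library and libraries with 0 counts drawn at 0.01. The dark diamonds of Control 3 stand to the right of the other 4 libraries for 30 of the 35 genes, and by at least 10-fold for 12.

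Among the 9 myosin heavy chains, the embryonic chain Myh3 (chromosome 11, 67078300 to 67102291 of GRCm38) had 4, 11, 9, 4 and 727 counts. Myh15, a slow-tonic type chain that extraocular muscle is known to use, had 0, 5, 4, 10 and 492 counts. For the adult fast chains, Myh1 (type IIx) had 0, 0, 2, 9 and 454 counts. These 3 chains were at or near the detection limit in every library but Control 3. Myh2 (type IIa) had 0, 0, 1, 3 and 374 counts. Myh4 (type IIb) had 0, 1, 0, 1 and 175 counts. Against a floor of 3 counts over the FDM group, the control mean was at least 99.3-fold higher for Myh1 and at least 80.8-fold higher for Myh2, and in both cases the control mean was carried by Control 3.

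The other heavy chains behaved differently. Myh8, the perinatal chain, had 122, 150, 141, 157 and 141 counts. Its levels of 2.75 to 3.53 CPM overlapped between the groups, with the highest in Control 1. Myh7, the slow and cardiac beta chain, had 43, 41, 40, 51 and 102 counts, which put Control 3 at 2.14 times the next library. Myh6, the cardiac alpha chain, had 15, 15, 9, 24 and 12 counts and was highest in Control 2. Myh13, the chain that marks fast fibres of extraocular muscle, had 4, 2, 5, 1 and 0 counts. The 0 counts in Control 3 allow a level of up to 0.0632 CPM, so it was not detectable at this depth in the library in which Myh1, Myh2, Myh3, Myh4 and Myh15 were highest.

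Per kb of exon, the heavy chains together reached 0.436, 0.475, 0.534, 0.478 and 7.92 CPM. In Control 3, Myh3 made up 31.9% of this sum, Myh15 20.6%, Myh1 19.0%, Myh2 13.9%, Myh4 7.73%, Myh8 3.18% and Myh7 3.15%. In the other 4 libraries Myh8 led, with 54.9% and 55.8% in the FDM libraries and 56.1% and 49.0% in Control 1 and Control 2. The composition therefore differed as well as the level. A group of 6 of the genes lies in 1 tandem array on chromosome 11 in the order Myh3, Myh2, Myh1, Myh4, Myh8 and Myh13: the first 4 were high in Control 3 and the last 2 were not. Near-identical sequence could have moved reads between the neighbours: of all 50-base windows, the read length, in the longest coding transcript, 26.7% of Myh1, 26.9% of Myh2, 18.9% of Myh4 and 21.4% of Myh8 also occur in another gene. The share was 4.81% for Myh3, 8.45% for Myh13 and 0% for Myh15, so the split between Myh1, Myh2, Myh4 and Myh8 is less certain than the levels of Myh3 and Myh15.

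**Figure D2:**
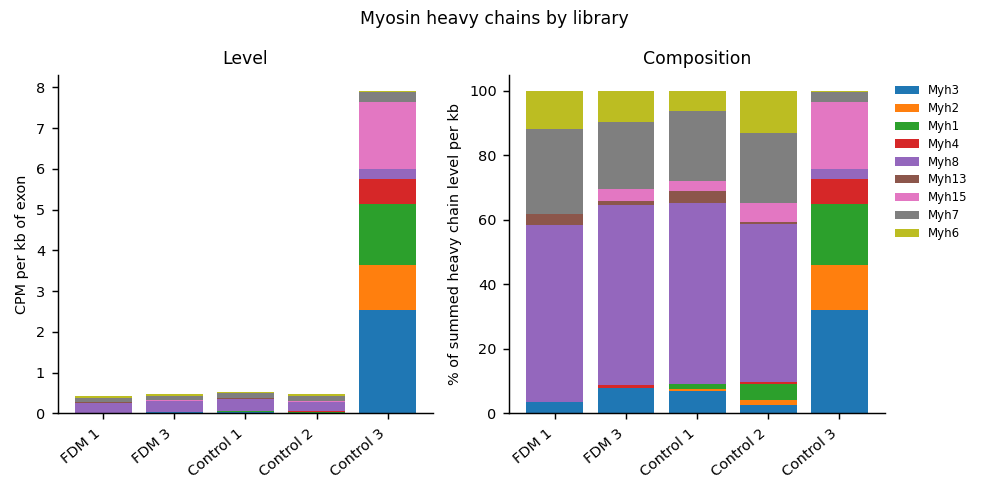
Summed level of the 9 myosin heavy chains in CPM per kb of exon (left) and its composition in percent (right) for each library, stacked by gene. Control 3 reached 7.92 CPM per kb and was made mostly of Myh3, Myh15, Myh1 and Myh2, while Myh8 made up the largest share in the other 4 libraries.

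Of the 4 light chains, Myl1, the fast alkali light chain, had 7, 12, 7, 28 and 590 counts. Mylpf, the fast regulatory light chain, had 132, 147, 118, 156 and 453 counts. Outside Control 3 the first stayed at or under 0.491 CPM, whereas the second had 2.74 to 3.06 CPM there and 9.54 CPM in Control 3. The slow and ventricular light chains followed less closely. Myl2 had 15, 32, 23, 16 and 54 counts, with Control 3 at 1.71 times the next library, FDM 3. Myl3 had 5, 7, 4, 10 and 8 counts and was highest in Control 2. For Myl1, 23.4% of the windows also occur in the pseudogene Mylf-ps.

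The pair of myosin binding proteins split. Mybpc1, the slow-type isoform, had 0, 1, 0, 0 and 312 counts, so that outside Control 3 it was seen in a single count. Mybpc2, the fast-type isoform, had 275, 278, 265, 242 and 288 counts, and its level of 4.24 to 6.64 CPM was highest in Control 1.

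On the thin filament, skeletal alpha-actin (Acta1) had 82, 107, 60, 99 and 552 counts. Control 3 was 5.23-fold above the next library, and the other 2 controls lay below both FDM libraries in CPM. Nebulin (Neb), the ruler of the thin filament, had 146, 163, 143, 263 and 308 counts and a smaller gap of 1.41 times between Control 3 and Control 2.

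Among the 6 troponins, the gap between Control 3 and the next library was larger for each fast form than for any slow form. Fast troponin C (Tnnc2) had 0, 6, 3, 11 and 247 counts. Fast troponin I (Tnni2) had 1, 1, 2, 7 and 309 counts, and fast troponin T (Tnnt3) had 1, 2, 0, 4 and 484. Tnni2 and Tnnt3 are neighbours on chromosome 7 (142441808 to 142444410 and 142498836 to 142516009). All 3 fast forms were thus at or near the detection limit in 4 libraries and at 247 to 484 counts in Control 3. Of the slow forms, Tnni1 had 18, 24, 21, 29 and 96 counts, with Control 3 at 3.84 times the next library. Slow troponin C (Tnnc1) had 129, 141, 159, 193 and 214 counts, and slow troponin T (Tnnt1) had 949, 1065, 895, 1231 and 1172. Tnnt1 had the highest CPM of the 35 genes in each library, at 21.6 to 24.7, and its level in Control 3 was 1.1 times that of Control 1. Per kb of exon, the excess of Control 3 over the mean of the other 4 libraries was 6.38 CPM for Tnnc2, 4.31 for Tnni2 and 6.42 for Tnnt3, against 1.14 for Tnnc1, 0.426 for Tnni1 and 1.21 for Tnnt1.

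Each of the 7 titin, Z-disc and intermediate filament genes was highest in Control 3, none by 10-fold. Titin (Ttn), the elastic filament, had 121, 123, 114, 220 and 551 counts. The titin cap Tcap had 23, 27, 25, 25 and 132, and desmin (Des), the muscle intermediate filament, had 74, 100, 83, 105 and 319. These 3 genes were 3.01, 4.44 and 3.23 times above the next library in Control 3. Myoz1, a calcineurin-binding Z-disc protein of fast fibres, had 1, 4, 1, 2 and 33 counts. The remaining Z-disc genes had smaller gaps between Control 3 and the next library, of 1.12 times for Actn2, 1.37 for Actn3 and 1.5 for Ldb3. Alpha-actinin 2 (Actn2) had 312, 345, 301, 413 and 402 counts. Alpha-actinin 3 (Actn3), the form of fast fibres, had 36, 46, 36, 46 and 62 counts. Ldb3, which binds alpha-actinin, had 140, 159, 96, 163 and 235 counts, with its lowest level in Control 1.

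Among the calcium-handling genes, the fast-fibre calcium pump Atp2a1 had 63, 59, 55, 51 and 971 counts. At 20.4 CPM in Control 3 it stood 14.1-fold above the next library. The calcium release channel Ryr1 had 242, 254, 249, 323 and 314 counts, and the calcium store protein Casq1 had 163, 182, 175, 201 and 239. Neither reached 1.2 times the next library in Control 3, at 1.06 for Ryr1 and 1.15 for Casq1.

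For oxygen and energy supply, myoglobin (Mb) had 21, 27, 23, 29 and 673 counts, with Control 3 24.6-fold above the next library. Muscle creatine kinase (Ckm) had 192, 247, 184, 261 and 571 counts, a gap of 2.34 times. On the per-kb scale, the excess of Control 3 over the mean of the other 4 libraries was highest for Mb, at 9.14 CPM per kb. Acta1 had 6.37, Mylpf 6.20, Myl1 5.86, Atp2a1 5.52 and the summed heavy chains 7.47 CPM per kb. The genes with the longest exon sequence had far smaller values on this scale, 0.103 for Neb, 0.0735 for Ttn and 0.0421 for Ryr1.

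The design compares FDM with control eyes. With the edgeR quasi-likelihood test over 17432 genes, 23 of the 25 tested members had a lower fitted level in FDM eyes, and their median log2 fold change was -0.55 against -0.01 for all tested genes. At an unadjusted p under 0.05, 1 member was called lower (1 of 25), beside 1.16% of all tested genes, and 0 were called higher, beside 0.453%. None had an adjusted p under 0.05 by this test (0 of 17432 genes did, with 281 at the unadjusted threshold), and DESeq2 gave 1 member at the unadjusted threshold and 3 genes after adjustment. The member called by edgeR was Tnnc1, with a mean of 2.95 CPM (SD 0.0311, n = 2) in FDM and 3.96 CPM (SD 0.561, n = 3) in control eyes. This is a log2 fold change of -0.42 with a standard error of 0.17 (adjusted p = 1.0 from edgeR). DESeq2 did not call Tnnc1 and called Myl1 in its place, both with an adjusted p of 1.0. For Myh3, DESeq2 gave a log2 fold change of -5.02 but no p.

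Members with far larger fold changes were not called by edgeR, and in these the controls differed among themselves. Myh3 had a mean of 0.16 CPM (SD 0.0964, n = 2) in FDM and 5.2 CPM (SD 8.75, n = 3) in control eyes, a log2 fold change of -4.97 with a standard error of 2.29. For Tnnc2 the log2 fold change was -4.75 (standard error 2.11), for Myl1 -4.38 (1.88), for Mb -3.27 (1.55) and for Atp2a1 -2.50 (1.33). In these 5 genes the SD of the 3 controls exceeded their mean. Both FDM libraries lay below all 3 controls in CPM for 6 of the 25 tested members (Neb, Tnnc1, Tnni1, Ttn, Actn2 and Ryr1), beside 6.67% of all tested genes. Of these 6, Tnnc1 alone passed the unadjusted threshold.

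Without Control 3 no tested member was called by edgeR (0 of 25), also at the unadjusted threshold. The median log2 fold change of the 25 members was then -0.03, with 14 negative and 11 positive values between -1.08 and 0.35. The ratio of the summed member CPM in control over FDM eyes was 1.77 with all 5 libraries and 1.02 without Control 3. For Myh3 the log2 fold change turned from -4.97 to 0.24 (standard error 0.79), for Atp2a1 from -2.50 to 0.26 (0.28), and for Acta1 from -1.27 to 0.35 (0.20). Tnnc1 kept a log2 fold change of -0.31 (standard error 0.16) and was not called.

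**Figure D3:**
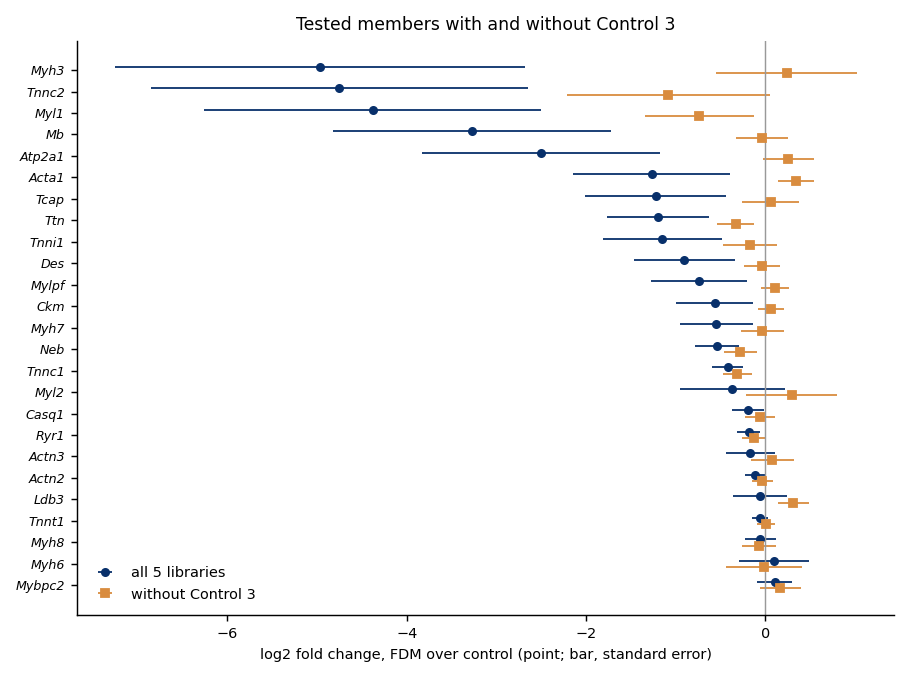
Log2 fold change of FDM over control eyes with its standard error for the 25 tested members, with all 5 libraries (circles) and without Control 3 (squares). With all libraries 23 of the 25 points lie below 0 and reach -4.97; without Control 3 they scatter between -1.08 and 0.35.

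A block for the mouse, in which the eyes numbered 1 form a pair and those numbered 3 another, changed the calls. By edgeR, 16 of the 25 members then had an unadjusted p under 0.05, each lower in FDM, beside 3.67% of all tested genes, and 3 had an adjusted p under 0.05 (Tnnc2 0.000499, Myh3 0.00418 and Myl1 0.0376) beside 0.31%. Only 1 residual degree of freedom remains in this fit. Tnnc2 had more than 10 counts in Control 2 and Control 3 alone, so it entered the comparison through the group in which it was higher, and nothing is read from its p. When CPM of the 2 eyes of 1 mouse were set side by side as log2 of FDM over control with 0.1 CPM added, mouse 1 had -0.76 for Myh3, -0.07 for Myl1 and -0.81 for Tnnc2, and mouse 3 had -5.55, -5.16 and -4.56. Over the 25 tested members, the value was negative for 20 in mouse 1, with a median of -0.09, and for 23 in mouse 3, with a median of -1.21. Of all tested genes, 55.3% were negative in mouse 1 and 50.3% in mouse 3. The large values were thus those of mouse 3, whose control eye gave Control 3. With the block set by the numbers of the sample labels, in which Control 3 has no partner, 0 of the 25 members were called and the median log2 fold change was -0.04.

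When every gene with at least 1 count was fitted, all 35 members could be included. By edgeR, 15 of them had an unadjusted p under 0.05, each lower in FDM, beside 1.46% of the 24659 genes in that fit. Of the 35, 0 had an adjusted p under 0.05. Among the 15, Myh1, Myh2, Myh4, Myh15, Mybpc1, Tnni2 and Tnnt3 exceeded the threshold of the count filter in Control 3 alone. They entered this fit through the group in which they were higher, so nothing is read from their p or from the count of 15. Without Control 3, the same fit called 1 of the 35, Myh1 (adjusted p = 1.0 from edgeR), which rests on the 2 and 9 counts of Control 1 and Control 2 against 0 in both FDM libraries. Where a group is at 0 throughout, a fitted fold change depends on the prior count, so none is given for Myh1 and Myh2.

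The 12 members that stood at least 10-fold above the next library in Control 3 also served to compare the other 4 libraries. Their summed level was 2.24 CPM in FDM 1 (95% Poisson interval 1.81 to 2.73), 2.60 in FDM 3 (2.16 to 3.10), 2.65 in Control 1 (2.17 to 3.21), 2.75 in Control 2 (2.34 to 3.22) and 122.3 in Control 3 (119.1 to 125.4). The intervals, which cover counting error only, overlapped among the first 4 libraries. Most counts in those 4 came from Atp2a1 and Mb. The other 10 genes, each under 0.5 CPM outside Control 3, summed to 0.3 CPM in FDM 1 (0.16 to 0.513), 0.811 in FDM 3 (0.577 to 1.11), 0.701 in Control 1 (0.466 to 1.01), 1.35 in Control 2 (1.07 to 1.69) and 87.7 in Control 3 (85.0 to 90.4). For these 10 the interval of Control 2 lay above those of FDM 1 and Control 1 and overlapped that of FDM 3, and the interval of FDM 1 lay below that of FDM 3. These 10 were set apart by their levels in the same 4 libraries, and Myl1 gave 28 of their 77 counts in Control 2. No difference between libraries is therefore read from them.

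Other genes of skeletal muscle outside the 35 were examined through a list of 64. Of these, 40 were tested, 2 were called lower in FDM by edgeR at the unadjusted threshold (Cox8b and Myoz2, adjusted p = 1.0), beside 1.16% of all tested genes, and 0 higher, and the median log2 fold change was -0.09. Control 3 was the highest library for 46 of the 64, for 19 by at least 2-fold and for 5 by at least 10-fold, while over all tested genes the first 2 shares were 20.2% and 0.224%. The 5 were sarcolipin (Sln), the inhibitor of the calcium pump, with 0, 0, 0, 1 and 29 counts, triadin (Trdn), which anchors the release channel complex, with 0, 1, 1, 4 and 57, mitochondrial creatine kinase (Ckmt2) with 7, 4, 2, 3 and 104, the Z-disc protein myotilin (Myot) with 0, 2, 0, 0 and 65, and leiomodin 2 (Lmod2) with 0, 0, 0, 1 and 39. Beta-tropomyosin (Tpm2) had 71, 112, 88, 117 and 393 counts and Xirp2 8, 13, 3, 19 and 111. Among the regulators of the muscle lineage, Myf6 had 35, 30, 17, 26 and 43 counts, with levels in both FDM libraries above those of Control 1 and Control 2. The others were at or near 0: Myod1 had at most 2 counts in a library, Pax7 had 2 counts in Control 3 and 0 elsewhere, Myf5 at most 2, and Myog had 7 in Control 3 and 1 in each other library. The channel genes Cacna1s and Scn4a, by contrast, were at 33.3 to 39.5 and 23.4 to 32.3 CPM in the 5 libraries, and neither was highest in Control 3.

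Markers of other tissues of the eye were read beside these values. None of 10 smooth muscle genes was highest in Control 3, and none of 10 cardiac genes was 2-fold above the next library there. Lists for lens, blood, surface epithelium and Schwann cells held 0 genes at 2-fold in Control 3, and the lens list was highest in FDM 3, at 2458 CPM against 4.78 to 41.6 elsewhere. Connective tissue genes were highest in Control 3 for 8 of 10 and by 2-fold for 3 of 10, and summed to 18.6, 26.5, 21.6, 42.5 and 57.9 CPM in FDM 1, FDM 3, Control 1, Control 2 and Control 3. Decorin (Dcn) had 0.161, 0.915, 0.651, 0.947 and 4.55 CPM, and the tendon gene Tnmd 0, 0, 0.025, 0.0701 and 0.421 CPM. Scx, a tendon transcription factor, was at 4.45, 4.57, 4.53, 5.21 and 4.74 CPM, and like Postn it was highest in Control 2. Markers of the retinal pigment epithelium and of pigment cells summed to 302.7, 301.6, 308.7, 545.5 and 585.6 CPM. Otx2 alone gave 211.9, 217.7, 213.8, 233.1 and 224.1 CPM of these sums. Of the other markers, Rpe65 was high in both Control 2 (27.9 CPM) and Control 3 (23.6) against 4.51 to 5.49 elsewhere. The pigment gene Dct was at 76.9 CPM in Control 3, 18.7 in Control 2 and 7.34 to 11.4 elsewhere. Of the 14 markers on this list, 6 were highest in Control 3. For 4 of the 14 (Tyrp1, Pmel, Mlana and Dct) Control 3 was at least 2-fold above the next library, against 0.224% of all tested genes. At the unadjusted threshold of edgeR, 7 of 14 tested pigment epithelium and 2 of 8 tested connective tissue genes were lower in FDM. So were 2 of 3 surface epithelium genes and 1 of 9 cardiac genes (Myoz2, also on the muscle list), beside 1.16% of all tested genes. Called higher were 15 of 19 lens genes and 1 of 6 Schwann cell genes, beside 0.453%. The lens list summed to 5.05 CPM for FDM 1, inside the control range of 4.78 to 41.6, so FDM 3 alone lay above that range. Among the controls, Control 2 (41.6 CPM) and Control 3 (14.6) lay above Control 1 (4.78). Of the 9 smooth muscle, 20 retina and 5 blood genes, 0 were called. The part of these tissues in the differences between FDM and control eyes was not tested.

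**Figure D4:**
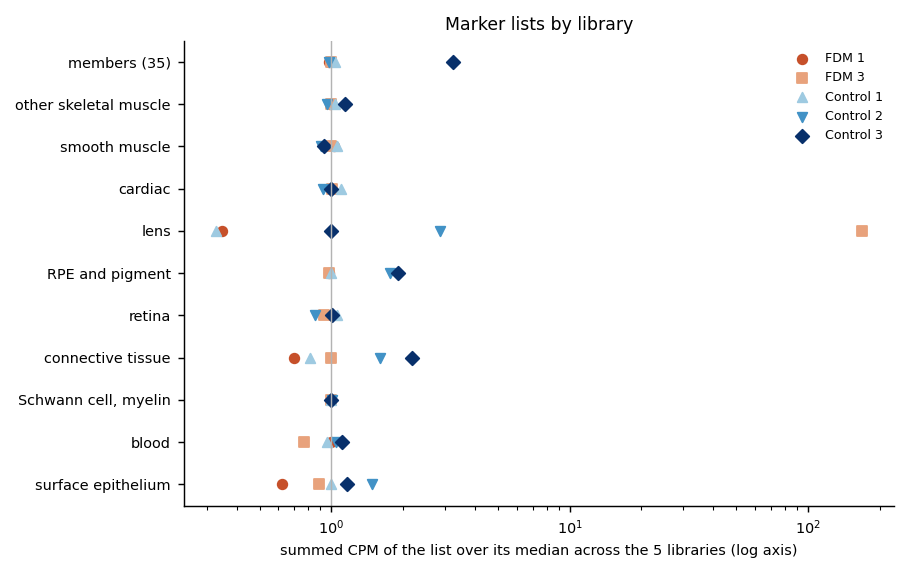
Summed CPM of the 35 genes and of 10 marker lists in each library, divided by the list's median over the 5 libraries (log axis), with 1 point per library. The 35 genes are high in Control 3, pigment epithelium and connective tissue markers in Control 2 and Control 3, and lens markers in FDM 3, while retina and Schwann cell markers stay near 1.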

How the data were processed

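Retinal RNA (poly(A)-selected, 50-base paired-end reads) was analysed from 2 FDM and 3 control eyes, grouped by the sample labels. The authors trimmed reads with Trimmomatic 0.39, estimated counts per transcript with Salmon 1.10.1 and deposited whole-number estimated counts per gene. They also deposited a normalized signal from DESeq2, used here in an alternative. Salmon divides reads shared by near-identical genes by its model, which bears on Myh1, Myh2, Myh4 and Myh8. For its read duplication, the authors did not use 1 further FDM library. The genome build is stated for the study's meta-analysis (GRCm38); coordinates and exon lengths are from GENCODE M21 on GRCm38, which held 33586 of 33636 rows, and promoters from RefSeq on GRCm38. No protein sequences were used here.

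The filter kept genes above 10 counts in 2 or more libraries. They were tested with edgeR 4.0.16 (R 4.3.3; TMM factors, quasi-likelihood, no covariate, two-sided, Benjamini-Hochberg adjustment over all genes tested). Standard errors are the log2 fold change over the square root of F. Alternatives used DESeq2 1.42.0, limma 3.58.1 with pseudocounts of 1 and 0.1, other factors and filters, a block by mouse, and fits that omit 1 library at a time. The scripts were tested on simulated counts. The members, the gene lists and the tests were chosen with earlier results of these data known. All members found are named. Of the 64 other muscle genes, the rule allowed those above the filter or with the highest counts, and of the further lists it named none: the genes given from any of these lists were picked after their values were seen. Pairing was checked by correlating deviations from the group means across genes: 0.247 for FDM 1 with Control 1 and 0.0998 for FDM 3 with Control 3, against 0.163 for FDM 3 with Control 2, the pair of the label numbers. With 2 FDM libraries these deviations mirror each other, so the values do not decide between the numberings; the mouse pairing comes from the study's own numbers. The libraries come from eyes of separate animals within a group, with 1 library each.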

Additional observations from a re-analysis of the deposited data

How the results depend on the processing

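Leaving out each library in turn gave 0 to 9 members and 146 to 944 genes at the unadjusted threshold, and 0 to 16 genes after adjustment. The median log2 fold change of the tested members ran from -0.78 (without Control 2) to -0.03 (without Control 3), and the ratio of the summed CPM in control over FDM eyes from 1.02 (without Control 3) to 2.16 (without Control 2). Members called were 7 beside 944 genes without Control 1, 9 beside 550 without Control 2, and 0 beside 146 without Control 3, 165 without FDM 1 and 196 without FDM 3. DESeq2 called 172 genes, and 3 after adjustment. Fitting every gene with at least 1 count gave 498 genes, 15 members and a median of -0.91 over all 35; 7 of the 25 members tested otherwise were newly called, and the cause was not tested. By limma on the normalized counts with a pseudocount of 1 or 0.1, 2 members were called, Tnnc1 and Neb, beside 300 and 293 genes. The mouse as a replicate block gave 1261 genes, 54 after adjustment, 16 members and a median of -0.74. The block by label numbers gave 439 genes, 128 after adjustment, 0 members and a median of -0.04. Both block fits leave 1 residual degree of freedom. Added after the data were seen, the mouse block with every gene of at least 1 count gave 1754 of 24659 genes, 323 after adjustment. It called 25 members, 19 of them after adjustment. In both fits of every gene with all 5 libraries, members above 10 counts in Control 3 alone entered through the group in which they were higher. Nothing is read from their p or from these counts of members. The fit of every gene without Control 3 gave 2 genes after adjustment and 1 member. RLE factors and filterByExpr called 1 member each, and the normalized counts gave a ratio of 1.64. Tnnc1, the member called in the main fit, kept its sign in every setting. Of the 25 tested members, 11 changed sign without Control 3 and 10 with the block by label numbers. Myh3, called with the mouse block at a log2 fold change of -5.45, was among the former, at 0.24. With 2 FDM and 3 control libraries, members near 0 in 4 libraries are known only to within counting error.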

Other observations

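Outside the lists, the 10 tested genes with the highest ratio of Control 3 to the next library (0.1 CPM added to both) were Commd1b, Hspb7, Gpnmb, Tgm1, Gli1, Nrap, Smyd1, Hjv, Islr and Gm20458, with ratios from 4.99 to 2.15. Several are known from striated muscle. The small heat shock protein Hspb7 had 9, 22, 14, 15 and 87 counts, in the order of the libraries used above. The nebulin-related anchoring protein Nrap had 30, 34, 38, 33 and 124, and the muscle methyltransferase Smyd1 had 17, 28, 23, 23 and 71. Gpnmb, a melanosome glycoprotein, had 245, 441, 280, 690 and 1866 counts. Over all tested genes, 13 stood at least 4-fold above the next library in Control 3, of which 7 were sarcomere or calcium-handling genes described above. The same gap was seen for 20 genes in FDM 3, for 1 in Control 1 and for 0 in FDM 1 and in Control 2.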
